A study of Vitis vinifera with 11 samples.

Results

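MADS9, TM6 and AP3 are the grapevine (Vitis vinifera) class B floral genes followed here, chosen by the gene numbers '100232978', '100233014' and '100233029' in that order. Each has a value, which may be 0, in all 11 libraries. They are 3 of the 25771 gene numbers measured, and all 3 were among the 19761 genes that passed the filter on low values. The naming table gives MADS9 the synonym PISTILLATA (VvPI), TM6 the synonym VvAP3.2 and AP3 the synonym VvAP3.1. All members passed the filter through the inflorescences alone, so passing it said nothing about the other organs.

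The study sequenced messenger RNA from young inflorescences, tendrils and leaves along the shoot, with nodes counted downward from the apex. Inflorescences of nodes 1, 2 and 3 came from the picovine genotypes 06C021V0046 and 06C008V0003, with 1 library from each genotype at each node. Tendrils of the same nodes were taken from Pinot Meunier L2, the control plant, with 1 library per node. Leaves of the 3 nodes were pooled before sequencing, giving a library each for 06C021V0046 and Pinot Meunier L2. The labels name no treatment agent for any group, and all plants shared the same controlled day and night regime. As background, picovines are dwarf vines that bear inflorescences where other vines bear tendrils, and Pinot Meunier L2 vines were regenerated from the inner cell layer of the chimeric cultivar Pinot Meunier. The protocol text writes the first picovine genotype as 04C021V0046, and the sample labels were followed. Both leaf pools are labelled as taken opposite inflorescences, although the protocol names tendrils for Pinot Meunier L2. This leaves the position of the Pinot Meunier L2 leaves uncertain. The replicates of a node are different genotypes, so their spread holds both genotype and sampling. All inflorescences were picovine and all tendrils Pinot Meunier L2, so organ and genotype cannot be told apart in that contrast.

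Class B proteins are MADS-box transcription factors that specify petals and stamens. In the model plants where they were worked out, a PISTILLATA-type protein pairs with an APETALA3-type protein, and the pair binds DNA together with class C and SEPALLATA (class E) partners. TM6, named after a tomato gene, belongs to a second branch of the APETALA3 lineage that Arabidopsis has lost and grapevine has kept. MADS9 is thus the PISTILLATA-type partner, and TM6 and AP3 are its possible APETALA3-type partners.

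Levels are in RPKM (reads per kilobase of gene and per 1000000 mapped reads), so genes can be compared per length. The inflorescence libraries held 11.36 to 14.55 M reads each (M, 1000000 reads), the tendril libraries 7.36 to 15.18 M, and the leaf libraries 9.21 M (06C021V0046) and 14.99 M (Pinot Meunier L2). Reads per gene were worked back from the RPKM values, and intervals and floors drawn from them cover counting error only. Among defining markers, the leaf gene NDHM had 27.5 to 36.3 RPKM in leaf pools and 9.97 ± 0.834 (SD, n = 3) in tendrils. The photosystem gene PSBP1 did not set leaves apart from tendrils, with 337 to 637 RPKM in leaf pools and 598 ± 371 in tendrils. Inflorescences were lower than leaf pools for both, with 7.93 ± 2.73 RPKM of NDHM and 177 ± 86.5 of PSBP1 (SD, n = 6). In such bulk samples, fewer cells that express a gene and less of its RNA per cell cannot be told apart.

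All class B genes were abundant in every inflorescence library and near the limit of detection in every tendril and leaf library. MADS9, the PISTILLATA-type gene, had 578.1, 635.0 and 699.0 RPKM at nodes 1, 2 and 3 of 06C021V0046. In 06C008V0003 it had 583.1, 722.7 and 950.5 RPKM at the same nodes. Between 6010 and 11581 reads lay behind each of these values, and MADS9 ranked between 44th and 143rd of all gene numbers in the 6 libraries.

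TM6 came second in each of these libraries, with 217.9, 220.9 and 219.6 RPKM in 06C021V0046. In 06C008V0003 it had 205.7, 270.8 and 380.3 RPKM. Its rank among all gene numbers lay between 223 and 571. AP3, the other APETALA3-type gene, had 65.08, 72.62 and 61.10 RPKM in 06C021V0046 and 78.58, 101.6 and 108.4 RPKM in 06C008V0003, with ranks of 1093 to 2362. The order MADS9, TM6, AP3 held in 6 of 6 inflorescence libraries, and the 3 ranges did not overlap.

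Tendrils held almost no class B reads. MADS9 had 0.1169, 0 and 0.07642 RPKM in tendrils of nodes 1, 2 and 3, from 1, 0 and 1 reads. AP3 had a single read, at node 2 (0.1142 RPKM), and 0 at the other nodes. Both genes were thus under a floor of 3 reads in all 3 tendril libraries. TM6 was the exception, with 0.6915, 0.666 and 0.5167 RPKM from 7, 5 and 8 reads, all above that floor. Leaves showed the same order for TM6 and AP3, with TM6 at 0.5325 RPKM in the 06C021V0046 pool and 0.7195 in the Pinot Meunier L2 pool (5 and 11 reads), and AP3 at 0 in both. MADS9 had 0.6301 and 0.2322 RPKM in these pools, from 5 and 3 reads. How reads shared between similar MADS-box genes were assigned is not given in the sources used here, and whether the few tendril and leaf reads came from other genes was not tested.

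**Figure D1:**
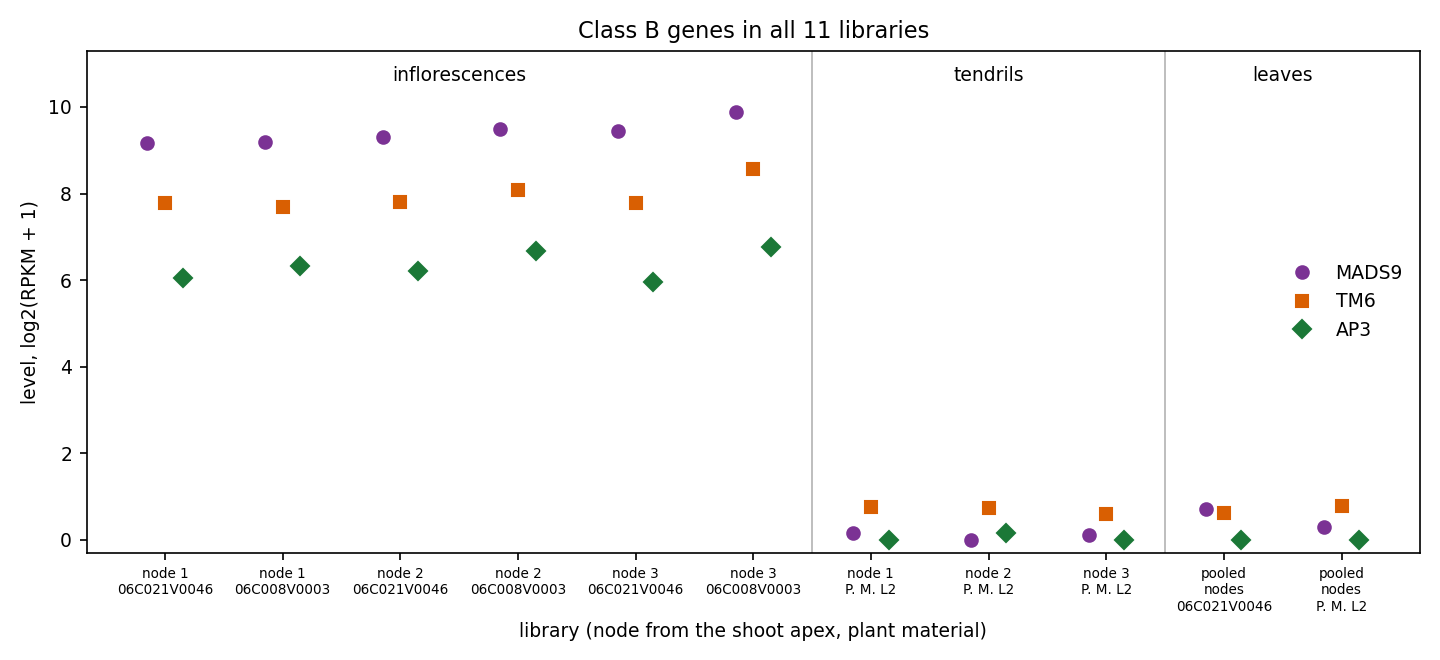
Level of MADS9, TM6 and AP3 in each of the 11 libraries, as log2(RPKM + 1) on the vertical axis, with 1 point per gene and library and P. M. L2 standing for Pinot Meunier L2. In the 6 inflorescence libraries MADS9 lies above TM6 and TM6 above AP3, and in the 5 tendril and leaf libraries all points lie below 1.

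The contrast with tendrils was tested with limma on log2(RPKM + 1) across all genes passing the filter. MADS9 was higher in inflorescences by 9.33 ± 0.179 (SE) on this scale, with an adjusted p of 8.83e-10. TM6 was higher by 7.25 ± 0.204 (adjusted p = 1.64e-08) and AP3 by 6.28 ± 0.239 (adjusted p = 1.3e-07). All 3 members were called higher, where 22.5% of the genes tested were, a share that includes genes passing the filter through other organs. Since the members passed through inflorescences alone, these calls and those against leaves add little to the levels given above. Against the leaf pools the differences were 8.92 ± 0.206, 7.25 ± 0.235 and 6.33 ± 0.276 for MADS9, TM6 and AP3 (limma adjusted p of 6.44e-09, 7.38e-08 and 6.55e-07), where 5.39% of genes were called higher. The median of all genes stood 0.205 higher in inflorescences than in tendrils on the same scale. With levels near 0 on one side, these sizes depend on the pseudocount: with 0.1 in place of 1 the contrast with tendrils was 12.10 for MADS9, 8.42 for TM6 and 9.27 for AP3.

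No difference of the class B genes between tendrils and leaves could be tested usefully, since each library of these organs held 0 to 11 reads of a member and the members had passed the filter through inflorescences.

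Few genes of comparable level kept so closely to inflorescences. A mean inflorescence level at least that of AP3 was found for 1580 genes, of which 20 stayed under 1 RPKM in every tendril and leaf library. For TM6 these numbers were 363 and 5, and for MADS9 81 and 3, each count including the member itself. Across the 6 inflorescence libraries, the coefficient of variation was 19.9% for MADS9, 24.0% for AP3 and 26.4% for TM6. Among the 2869 genes averaging 50 RPKM or more there, the median was 26.5%, so the spread of the class B genes lay at or below that of the typical abundant gene.

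The partners were present in unequal amounts, and in all inflorescence libraries the PISTILLATA-type transcript exceeded the sum of both APETALA3-type transcripts. MADS9 over the sum of TM6 and AP3 was 2.04, 2.16 and 2.49 at nodes 1, 2 and 3 of 06C021V0046 and 2.05, 1.94 and 1.94 in 06C008V0003. The mean of these per-length ratios was 2.11 ± 0.206 (SD, n = 6). Of the summed level of the 3 genes, MADS9 made up 67.7 ± 2.0%, TM6 24.4 ± 1.4% and AP3 7.91 ± 1.12%. The sum itself ran from 861.1 to 1439 RPKM, so its makeup varied less than its size. These are transcript ratios and carry no information on protein amounts.

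Taken pair by pair, MADS9 over TM6 was 2.65, 2.88 and 3.18 at nodes 1, 2 and 3 of 06C021V0046 and 2.84, 2.67 and 2.50 in 06C008V0003. The ratio was higher at each later node in the first line and lower at each later node in the second. MADS9 over AP3 was 8.88, 8.74 and 11.4 in 06C021V0046 and 7.42, 7.11 and 8.77 in 06C008V0003. TM6 over AP3 was 3.35, 3.04 and 3.59 in 06C021V0046 and 2.62, 2.67 and 3.51 in 06C008V0003. Both ratios over AP3 were highest at node 3 in both lines.

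The mean log2 ratio was 1.47 ± 0.121 (SD, n = 6) for MADS9 over TM6, 3.11 ± 0.242 for MADS9 over AP3 and 1.63 ± 0.199 for TM6 over AP3. Each was above 0 in 6 of 6 libraries. That alone fixes the exact two-sided sign-flip permutation test at p = 0.0312, the smallest that 64 flips allow (0.0312 adjusted over the 3 pairs). The test thus adds nothing to the order of the levels, and it takes the 6 libraries as independent, although libraries of a line deviated together. None of the ratios changed detectably with node. The slope of the log2 ratio per node was 0.02 for MADS9 over TM6 (exact permutation p = 0.733), 0.15 for MADS9 over AP3 (p = 0.311) and 0.13 for TM6 over AP3 (p = 0.289), with adjusted p of 0.733, 0.467 and 0.467. The 90 arrangements of the node labels could have given a p as low as 0.0222. The first slope rested on single node 3 libraries, being -0.06 without that of 06C021V0046 and 0.09 without that of 06C008V0003.

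AP3 made up a larger share in 06C008V0003 at each node. MADS9 over AP3 was lower in 06C008V0003 than in 06C021V0046 at 3 of 3 nodes, by log2 differences of -0.26, -0.30 and -0.38 (mean -0.31 ± 0.064, SD, n = 3). TM6 over AP3 was lower there at 3 of 3 nodes too, by -0.36, -0.19 and -0.04. At node 3 the 95% counting intervals of that ratio overlapped widely between the lines (3.33 to 3.7 in 06C008V0003 and 3.35 to 3.86 in 06C021V0046). MADS9 over TM6 went both ways, with differences of 0.10, -0.11 and -0.35. With 3 matched nodes the exact sign-flip test cannot go below p = 0.25, which both ratios over AP3 reached.

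Outside inflorescences the order of MADS9 and TM6 was turned round in tendrils. Pooled over the 6 inflorescence libraries, MADS9 over TM6 was 2.75, with a 95% counting interval of 2.71 to 2.8. Pooled over the tendril libraries it was 0.118 (0.0134 to 0.487), from 2 reads of MADS9 and 20 of TM6. In the leaf pools it was 0.592 (0.219 to 1.47), from 8 and 16 reads, an interval that includes 1. TM6 also exceeded AP3 there, with 20 reads against 1 in tendrils and 16 against 0 in leaves. These counts are small, and the intervals treat reads as independent.

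**Figure D2:**
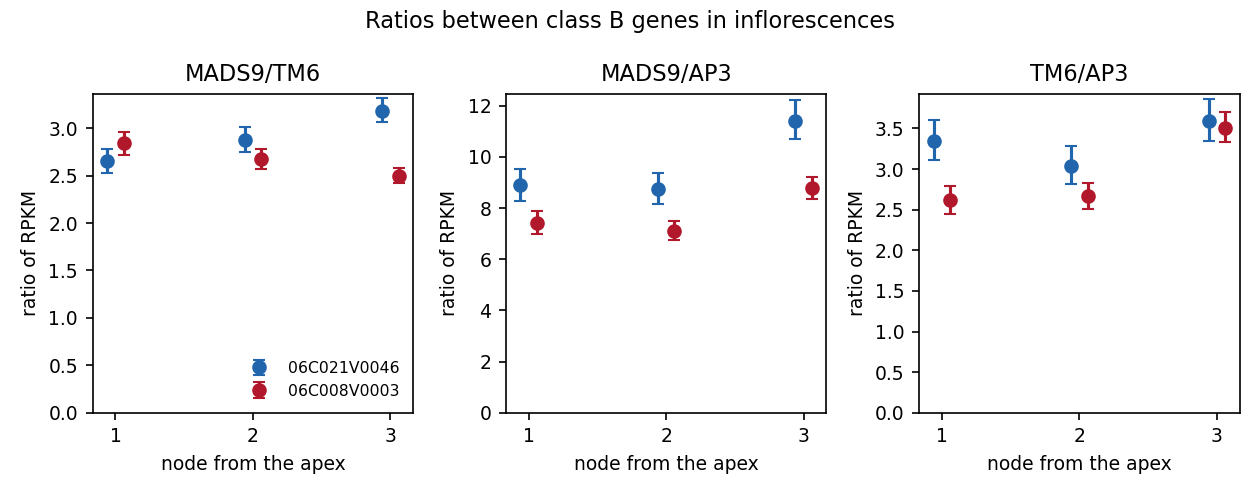
Ratios of RPKM between the class B genes in the 6 inflorescence libraries, plotted against node for the 2 picovine lines on linear axes that start at 0, with bars for 95% counting intervals. MADS9 over TM6 stays between 2.50 and 3.18, while both ratios over AP3 lie lower in 06C008V0003 than in 06C021V0046 at each node. For TM6 over AP3 the intervals of the lines just overlap at node 2. They overlap widely at node 3 (3.33 to 3.7 in 06C008V0003 and 3.35 to 3.86 in 06C021V0046).

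MADS9 was the member with a higher value at each later node in both lines, whereas TM6 stood at nearly one level in 06C021V0046 and was higher at each later node in 06C008V0003. The mean level of MADS9 over the lines was 580.6 ± 3.557 RPKM at node 1, 678.9 ± 62.02 at node 2 and 824.7 ± 177.8 at node 3 (SD, n = 2). Node 3 over node 1 was 1.21 in 06C021V0046 and 1.63 in 06C008V0003. TM6 averaged 211.8 ± 8.69, 245.9 ± 35.32 and 299.9 ± 113.6 RPKM at the 3 nodes, with node 3 over node 1 at 1.01 in 06C021V0046 and 1.85 in 06C008V0003. AP3 averaged 71.83 ± 9.547, 87.11 ± 20.48 and 84.77 ± 33.48 RPKM, with node 3 over node 1 at 0.939 and 1.38. The spread between lines thus widened with node for each gene.

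None of these courses passed the test. The limma slope per node, over both lines, was 0.24 for MADS9 (95% interval -0.03 to 0.52, adjusted p = 0.199), 0.22 for TM6 (-0.09 to 0.54, adjusted p = 0.299) and 0.09 for AP3 (-0.28 to 0.47, adjusted p = 0.734). Among all genes tested, 15% had a called slope. The size of the slope depended on the scaling: quantile normalization gave 0.01, 0.10 and 0.02 for MADS9, TM6 and AP3, and median-ratio scaling gave 0.33, 0.30 and 0.17, none called. Leaving out 1 library gave 0.15 to 0.34 for MADS9, 0.05 to 0.39 for TM6 and -0.06 to 0.29 for AP3, each lowest without the node 3 library of 06C008V0003. The single steps were not called either in the main fit, which leaves out line. There 0.0531% of genes were called from node 1 to node 2 and 6.4% from node 2 to node 3. With line in the model 2034 and 7822 of 18839 genes were called for these steps, again without a class B gene. In the main fit the limma differences from node 1 to node 2 were 0.22, 0.21 and 0.26 for MADS9, TM6 and AP3, with adjusted p of 0.82 to 0.865. Without 1 library they ranged from 0.13 to 0.32, 0.06 to 0.35 and 0.02 to 0.50. From node 2 to node 3 they were 0.27, 0.24 and -0.08, with adjusted p of 0.529 to 0.894, against a median of -0.13 over all genes. The direction of that second step depended on the scaling: quantile normalization made it -0.24 for MADS9 and -0.07 for TM6, and median-ratio scaling made it 0.10 for AP3.

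**Figure D3:**
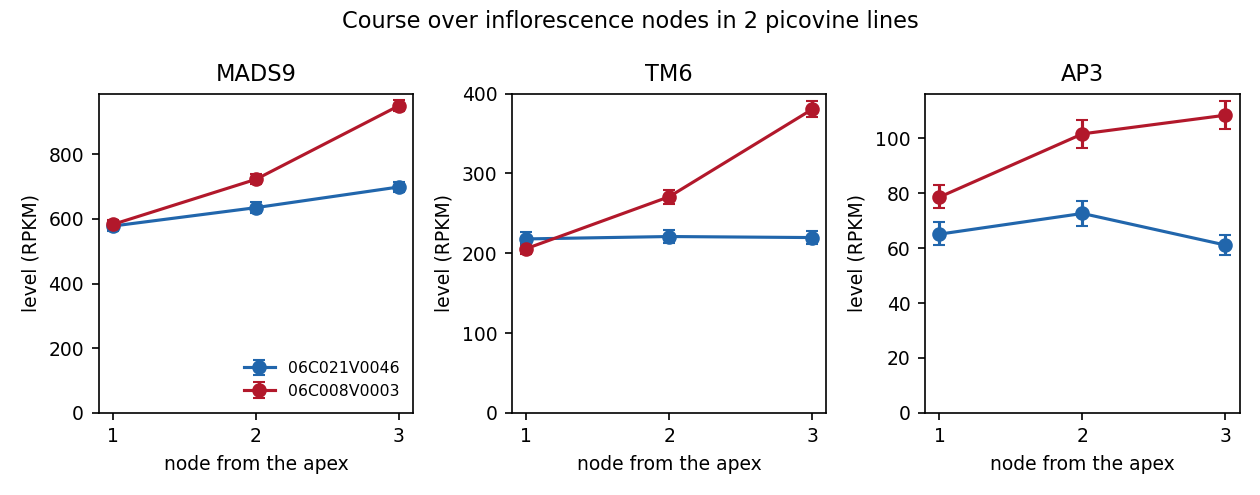
Level of each class B gene in RPKM against node in inflorescences, with 1 point per library, 1 line per picovine genotype and bars for 95% counting intervals. At node 1 the lines lie close together for MADS9 (578.1 and 583.1 RPKM) and TM6 (217.9 and 205.7), and at node 3 06C008V0003 lies above 06C021V0046 for all 3 genes.

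Between the picovine lines, AP3 was higher in 06C008V0003 at each node. It was the only class B gene called in the main fit, and 7 of the alternatives run lost that call. AP3 in 06C008V0003 over 06C021V0046 was 1.21 at node 1, 1.4 at node 2 and 1.77 at node 3, with 95% counting intervals of 1.11 to 1.31, 1.29 to 1.52 and 1.64 to 1.92. TM6 gave 0.944, 1.23 and 1.73 at these nodes, and MADS9 gave 1.01, 1.14 and 1.36. At node 1 the interval of MADS9 (0.975 to 1.04) included 1 and that of TM6 (0.896 to 0.994) lay just below it. These intervals hold no spread between plants, which a single library per line and node does not show.

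With node in the model, the limma difference between lines was 0.52 for AP3 (95% interval 0.22 to 0.82, adjusted p = 0.023), 0.33 for TM6 (-0.03 to 0.69, adjusted p = 0.147) and 0.21 for MADS9 (-0.06 to 0.49, adjusted p = 0.213). Of the 3 class B genes, 1 was called higher, where 15% of genes were, and the median of all genes was itself 0.12 higher in 06C008V0003. The 3 nodes served as replicates of a line, so these intervals and p-values hold no spread between plants of a line. AP3 ran from 61.10 to 72.62 RPKM in 06C021V0046 and from 78.58 to 108.4 RPKM in 06C008V0003. The call was lost under median-ratio scaling, which removes most of the shift of all genes (0.39, adjusted p = 0.0619), without the filter (adjusted p = 0.149) and without node in the model (adjusted p = 0.51). It was also lost when either node 2 library (0.54, adjusted p = 0.107 for both) or either node 3 library was left out (0.37, adjusted p = 0.0747 without 06C021V0046 and 0.0789 without 06C008V0003). TM6 was called higher in 06C008V0003 without the node 1 library of either line (0.54, adjusted p = 0.0171 without 06C021V0046 and 0.0162 without 06C008V0003). The scaling moved TM6 and MADS9 both ways: under quantile normalization both were called (0.55 each, adjusted p of 0.0435 and 0.0239), and under median-ratio scaling they were 0.20 (adjusted p = 0.398) and 0.08 (adjusted p = 0.683). Leaving out 1 library gave 0.10 to 0.31 for MADS9, lowest without either node 3 library, and 0.10 for TM6 without either node 3 library.

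Whether the course over nodes differed between the lines was asked in a fit added after the data were seen. In 06C021V0046 the limma slope per node was 0.14 for MADS9, 0.01 for TM6 and -0.04 for AP3, and in 06C008V0003 it was 0.35, 0.44 and 0.23. The difference of slopes was 0.22 for MADS9 (adjusted p = 1.0), 0.44 for TM6 (unadjusted p = 0.0371, adjusted p = 1.0) and 0.27 for AP3 (adjusted p = 1.0). In this fit 0% of genes were called (0 of 18839), and 367 had an unadjusted p under 0.05, or 1.95%. The steeper course of TM6 in 06C008V0003 therefore did not pass the test over all genes.

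**Figure D4:**
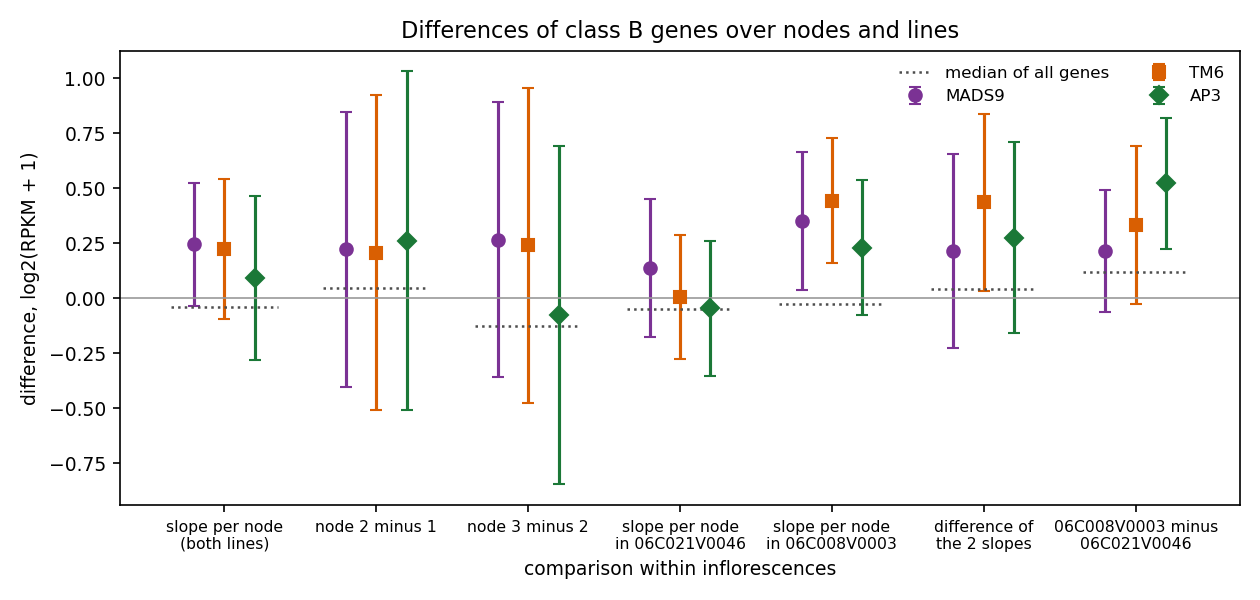
Differences in log2(RPKM + 1) of the class B genes between nodes and between picovine lines, with limma estimates as points, 95% intervals as bars and the median of all genes marked. The interval of AP3 for the difference between lines (0.22 to 0.82) does not reach 0, while those of TM6 (-0.03 to 0.69) and MADS9 (-0.06 to 0.49) do.

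Within inflorescences, levels of MADS9 and TM6 were correlated over the 6 libraries taken as exchangeable. With line means removed r was nearly the same, but it was not called, and the 36 pairings within lines were too few to decide. Over the 6 libraries, log2 levels of MADS9 and TM6 had Pearson's r = 0.945 (exact permutation p = 0.00694, adjusted 0.0208) and Spearman's rho = 0.886 (p = 0.0333, adjusted 0.1). Without the 2 libraries farthest from the median r was 0.79, and without the node 3 library of 06C008V0003 it was 0.748 (adjusted p = 0.125). For TM6 and AP3, r was 0.826 (exact p = 0.0278, adjusted 0.0417) and rho 0.6 (p = 0.242, adjusted 0.242), but r was -0.70 without the 2 farthest libraries, so that relation rested on them. For MADS9 and AP3, r was 0.703 (exact p = 0.118, adjusted 0.118) and rho 0.6 (p = 0.242, adjusted 0.242), and r was 0.19 without the 2 farthest libraries. Libraries of a line deviated together, so the test was repeated with line means removed and pairings permuted within lines, a choice made after seeing the data. It gave r = 0.936 for MADS9 and TM6 (exact permutation p = 0.0556, adjusted 0.167), 0.829 for TM6 and AP3 (adjusted 0.333) and 0.704 for MADS9 and AP3 (adjusted 0.333), where the smallest possible p was 0.0278.

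The AGAMOUS-type genes, which act with class B genes, rose along the nodes relative to each class B gene. AG and MADS1 are AGAMOUS-type (class C) genes, whose relatives in other plants specify stamens and carpels, and MADS2 is a SEPALLATA-type gene. The limma slope per node was 0.99 for AG (adjusted p = 0.00988) and 0.76 for MADS1 (adjusted p = 0.0144), both called, and 0.06 for MADS2 (adjusted p = 0.77). AG had 86.24, 182.9 and 307.2 RPKM at nodes 1, 2 and 3 of 06C021V0046 and 86.39, 212.9 and 380.1 in 06C008V0003. How the authors' counting treated copies within the AGAMOUS family is not given, so the split between AG and MADS1 is uncertain.

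Set against MADS9, AG therefore moved from 0.149 and 0.148 of its level at node 1 to 0.44 and 0.4 at node 3 in 06C021V0046 and 06C008V0003. AG over TM6 moved from 0.396 and 0.42 at node 1 to 1.4 and 1.0 at node 3, so AG reached the level of TM6 by then. AG over AP3 moved from 1.33 and 1.1 to 5.03 and 3.51. The log2 slopes of these ratios were 0.75, 0.77 and 0.90 per node. MADS1 over MADS9, TM6 and AP3 had slopes of 0.53, 0.55 and 0.68. Each of the 6 ratios gave p = 0.0222, the smallest of the exact permutation test over node labels (adjusted 0.0286 over 9 ratios, a family added after the data were seen). The exact permutation within lines also gave its smallest value for each (p = 0.0556, adjusted 0.0714). Leaving out 1 library gave adjusted p between 0.0429 and 0.0857.

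The SEPALLATA-type gene kept nearer to the class B genes. MADS2 had 195.9, 180.3 and 185.5 RPKM at nodes 1, 2 and 3 of 06C021V0046 and 187.6, 198.7 and 235.3 in 06C008V0003, close to TM6 at node 1. MADS2 over MADS9 went from 0.339 and 0.322 at node 1 to 0.265 and 0.248 at node 3, a slope of -0.18 (exact permutation p = 0.0222, adjusted 0.0286, and 0.0714 within lines). MADS2 over TM6 (slope -0.16, adjusted p = 0.175) and over AP3 (-0.03, adjusted p = 0.889) gave no detectable slope. Without the node 3 library of 06C021V0046, MADS2 over TM6 was -0.27 (exact permutation p = 0.0333, adjusted 0.0429), and over all libraries left out in turn it ranged from -0.27 to -0.08.

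**Figure D5:**
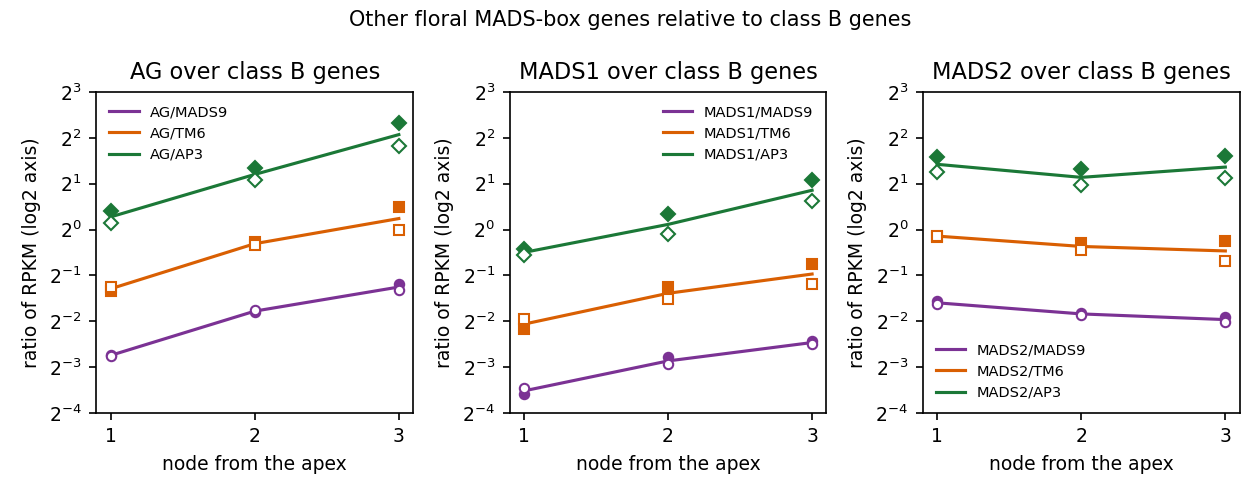
Ratio of AG, MADS1 and MADS2 to each class B gene in inflorescences against node, on a log2 axis, with filled points for 06C021V0046, open points for 06C008V0003 and lines through the geometric mean of both. Ratios of AG and MADS1 climb over the nodes for each class B gene (AG over MADS9 from 0.149 to 0.419), while MADS2 over MADS9 falls from 0.33 to 0.256.

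The genes whose pattern was most like each class B gene over the 11 libraries were the same few. By Pearson's r of log2(RPKM + 1), ranked among 19760 other genes, the nearest gene was TM6 for MADS9 (r = 0.99866), AP3 for TM6 (0.99904) and TM6 for AP3 (0.99904). The 5 nearest genes of each member were the other two members, MADS2, LOC100248996 and LOC100260736. MADS2 had 197 ± 19.9 RPKM (SD, n = 6) in inflorescences, LOC100260736 66.8 ± 14.5 and LOC100248996 48.9 ± 9.66, and in tendrils and leaves none of the 3 exceeded 0.371 RPKM. These values of r rest mainly on the gap between inflorescences and the other organs. Over the 6 inflorescence libraries alone, TM6 was 135th in likeness to MADS9 and AP3 was 3282nd, and none of the 5 genes stayed among the nearest 5 of any member.

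Of 18 names listed for floral organ identity genes of classes A, C, D and E, 8 were found and tested, and 6 were higher in inflorescences than in tendrils and 1 lower, where 22.5% and 11.6% of all genes were. The 6 were AG, MADS2, MADS1, MADS3, MADS5 and AP2, with limma differences from 7.41 for AG to 1.15 for AP2 (adjusted p = 0.0234). VFUL-L, a FRUITFULL-type gene, was lower in inflorescences (-1.08, adjusted p = 0.00773), and AP1 was not called (-0.35, adjusted p = 0.385). The median difference of the list was 2.85, against 0.205 over all genes. Along the nodes, AG, MADS1 and MADS5 (an ovule-identity gene, slope 0.87, adjusted p = 0.0182) rose and 5 were not called, where 6.34% of all genes rose, and between the lines none of the 8 was called.

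Of 21 names listed as regulators upstream of class B genes, 8 were found and 7 tested between organs. FT, the mobile flowering signal, was higher in inflorescences than in tendrils (2.94, adjusted p = 8.95e-05), as was AP2. MADS8, a SOC1-type gene, was lower (-2.36, adjusted p = 0.000231), as was LOC100232937 (-2.69, adjusted p = 0.00801), which is VVGAI1, a gibberellin-signalling repressor. The tendril level of VVGAI1 was uneven, at 36.7 ± 32.6 RPKM (SD, n = 3), against 3.07 ± 2.67 RPKM in inflorescences (n = 6). All inflorescences were picovine and all tendrils Pinot Meunier L2, so organ and genotype cannot be told apart for VVGAI1 or the rest of this list. The other 3 were not called, and the list's median was -0.35. The 2 of 7 higher and 2 of 7 lower stand beside 22.5% and 11.6% of all genes. None of the 7 had a called slope along the nodes, where 15% of all genes did. Between the lines, FT was lower in 06C008V0003 (-0.71, adjusted p = 0.00419) and MADS8 higher (0.61, adjusted p = 0.0398), and 4 of 6 tested were not called, where 10.6% of genes were called lower and 15% higher.

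Of 14 names listed for petal, stamen and pollen genes, 4 were found. The sugar transporter SWEET15 (LOC100243643) and the gibberellin enzyme GA20ox1 (LOC100257500) were higher in inflorescences than in tendrils (4.87 and 2.95, adjusted p of 0.000184 and 0.000155). The gibberellin enzyme GA3ox1 (LOC100265167) was lower (-1.17, adjusted p = 0.0025), and the anther-associated factor MYB24 was not called (1.63, adjusted p = 0.0972), beside 22.5% of all genes higher and 11.6% lower. Along the nodes SWEET15, GA20ox1 and MYB24 rose, with slopes of 3.04, 2.16 and 2.39 per node (limma adjusted p of 0.00268, 0.00131 and 0.0181), where 6.34% of all genes rose and no class B gene had a called slope. Their levels were uneven over the inflorescence libraries and began at or near 0, so the slopes do not show a steady rise. SWEET15 ran from 0.456 to 291 RPKM and GA20ox1 from 0.596 to 33.7. MYB24 ran from 0 to 56.3 RPKM, with an SD (22.5) above its mean (11.6). Whether the slopes of these genes differ from those of the class B genes was not tested. Between the lines, SWEET15 was lower in 06C008V0003 (-1.26, limma adjusted p = 0.00367) and the other 3 were not called, where 10.6% of genes were called lower.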

How the data were processed

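Single-end Illumina mRNA libraries were sequenced from 11 samples, per the labels' protocols. The authors deposited 1 RPKM value per gene number and library. The tools listed, per the submitters' processing notes, are Bowtie 0.12.7 and TopHat 1.2.0. Build, annotation and counting method are not given in the sources used here, so no coordinates are printed, and sequences of the genes were not used here. Gene names came from the RefSeq table of assembly ASM3070453v1, which held 18647 of 25771 gene numbers.

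Reads per gene were worked back from the whole steps of the RPKM values (24328 of 24365 genes came out whole, or 99.85%, tolerance 0.01 read). They served for depth, 95% counting intervals and floors of 3 reads, not for tests. PCR reads without molecular identifiers are not independent molecules.

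Tests used limma 3.58.1 (R 4.3.3). The values tested were log2(RPKM + 1), for genes reaching 1 RPKM in at least 2 libraries, with a variance trend, two-sided p-values with Benjamini-Hochberg adjustment over all genes tested and a threshold of 0.05. Organ contrasts and the slope per node were fitted on all 11 libraries (19761 genes), with organ means at node 2 and separate node slopes in inflorescences and tendrils. Node steps and lines were fitted on the 6 inflorescence libraries (18839 genes), with node as a factor. The residual degrees of freedom were 6, 3 and 2 for the organ, step and line fits. Ratios and correlations used exact permutation tests in scipy 1.17.1. The limma code of the organ, step and line fits was run on simulated data with known changes. The simulated libraries of a line did not deviate together, so that run says nothing on error rates in these data.

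Replicate numbers stand for genotypes. Over all genes, the difference between picovine lines correlated between nodes 1 and 2 (0.638), 1 and 3 (0.558) and 2 and 3 (0.701), so libraries of 1 line deviated together. The replicate block was therefore genotype, and organs are then linked only through the leaf pools.

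Genes named beside the 3 members were the 5 most similar to each by Pearson's r, and up to 6 members of each list with the largest change between inflorescences and tendrils, and the marker genes. The members and lists were chosen with earlier results of these data known. Alternatives were 2 other pseudocounts, no filter, quantile and median-ratio scaling, the block, other sample sets, ratios and distances, and leaving out each library. Whether replicates came from separate plants is stated only as different genotypes, so p-values measure the spread between these libraries.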

Additional observations from a re-analysis of the deposited data

Results flagged for a closer look

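TM6 in the node 3 inflorescence of 06C008V0003 stood at 380.3 RPKM, apart from the other 5 inflorescence libraries (205.7 to 270.8 RPKM). The gap to the nearest library, divided by the whole range, was 0.627, just over Dixon's critical value of 0.625 for 6 libraries. Among the 7 measures checked in this way, TM6 alone passed, and chance alone marks about 1 group in 20. The same library was farthest for MADS9 (950.5 RPKM, 0.612), just under the critical value, and for AP3 (108.4 RPKM, 0.145). Without it the limma slope of TM6 per node was 0.05 in place of 0.22.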

How the results depend on the processing

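The contrasts of inflorescences with tendrils and with leaves kept direction and call for all 3 class B genes under every alternative run. With the replicate block they were 8.82, 7.25 and 6.02 against tendrils (adjusted p = 0.000149, 0.000515 and 0.0019) and 8.61, 7.17 and 6.07 against leaves. The block changed no limma call of a class B gene, although the calls over all genes went from 6737 to 77 against tendrils, from 2556 to 1283 against leaves, from 2490 to 1342 between tendrils and leaves, from 2960 to 4588 for the slope, and from 10 to 2034 and 1205 to 7822 for the steps. Without the filter the calls were 730 for the slope, 2 and 147 for the steps and 0 for the lines. With the filter but without node in the model, 13 genes were called between the lines.

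These values changed sign, were weaker or were stronger, and the cause was not tested. Tendril minus leaf, at levels too low for a useful test, was 0.0009 (pseudocount 0.1), 0.31 (quantile) and 0.0863 (median-ratio) for TM6, -0.0834 to 0.0827 on leaving out 1 library, 0 to 0.156 for AP3, and -1.65 for MADS9 (pseudocount 0.1). The step from node 2 to node 3 was -0.24 for MADS9 and -0.0746 for TM6 (quantile) and 0.10 for AP3 (median-ratio), with leave-one-out ranges of 0.05 to 0.49 for MADS9, -0.15 to 0.63 for TM6 and -0.49 to 0.33 for AP3. The slope of AP3 ranged from -0.0586 to 0.29. The slope in 06C021V0046 was -0.13 and -0.10 for MADS9 and TM6 (quantile) and 0.0266 for AP3 (median-ratio), ranging from -0.0085 to 0.0192 for TM6 and -0.25 to 0.16 for AP3. The line difference was 0.55 for MADS9 and TM6 (quantile) and, for AP3, 0.52 without the filter or node and 0.39 with median-ratio scaling. It ranged from 0.10 to 0.54 for TM6 and from 0.37 to 0.65 for AP3 (adjusted p = 0.00689 to 0.107).

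In 06C021V0046 and 06C008V0003 alone the log2 ratios were 1.53 and 1.41 (MADS9 over TM6), 3.27 and 2.95 (MADS9 over AP3) and 1.73 and 1.54 (TM6 over AP3), where 3 libraries allow no exact p below 0.25. Without 1 library they were 1.43 to 1.5, 3.03 to 3.16 and 1.59 to 1.68, with an exact p of 0.0625, the smallest for 5. The slope of MADS9 over TM6 was -0.00189 as a ratio of log2(RPKM + 1) values and -0.0554 to 0.0942 without 1 library. Correlations ranged from 0.748 to 0.989 (MADS9 and TM6), 0.362 to 0.878 (MADS9 and AP3) and 0.747 to 0.885 (TM6 and AP3) without 1 library. They were 0.79 for MADS9 and TM6 and -0.70 for TM6 and AP3 without the 2 farthest, and 0.82 for TM6 and AP3 with median-ratio scaling. With the replicate block, added after seeing the data, the correlations of MADS9 and TM6 (0.936) and of TM6 and AP3 (0.829) were no longer called. The slope of MADS2 over AP3 ranged from -0.171 to 0.0763. Of the 5 genes named as most similar, 2, 3 and 2 were shared by Euclidean distance for MADS9, TM6 and AP3, and 0, 0 and 0 within inflorescences.

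The fit on tendrils and leaves alone was not run, because no class B gene reached the filter there. At 0 to 11 reads per library, levels were too low for a useful test of tendrils against leaves. Among the alternatives, only MADS9 with a pseudocount of 0.1 was called (-1.65, limma adjusted p = 0.0204). It had 2 reads over the tendril libraries and 8 over the leaf pools.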

Other observations

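Besides the class B genes and MADS2, 29 other genes had a mean of at least 50 RPKM in inflorescences and under 1 RPKM in every tendril and leaf library, 33 in all. By inflorescence level MADS9 was the third of them, TM6 the fifth, MADS2 the 12th and AP3 the 20th. The genes above MADS9, named after their values were seen, were LOC100242221 (832.0 RPKM, at most 0.0888 elsewhere) and LOC100249955 (746.7 RPKM, at most 0.332 elsewhere). The naming table gives neither a symbol beyond its locus number.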
